A study of Mus musculus with 2 samples.

Results

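Tnfrsf25 and 9 further receptors of the tumour necrosis factor (TNF) receptor superfamily were followed in blood stem and progenitor cells of the mouse fetal liver and adult bone marrow. The 10 receptors, Tnfrsf25, Tnfrsf1a, Tnfrsf1b, Fas, Cd27, Tnfrsf10b, Tnfrsf13c, Tnfrsf14, Tnfrsf18 and Tnfrsf21, are 10 of the 20655 genes named on the array, and 14 probes carried their accessions. They were picked by name with their values on these arrays known, so every value given for them is a description and none is tested. The cells were LSK cells, which lack the markers of mature blood lineages and carry Sca-1 and c-Kit. Both populations were sorted fresh from wild type mice without transplantation, 1 from bone marrow at 8 weeks and 1 from fetal liver at E14.5. The labels give the strain C57BL/6 for the bone marrow cells, none was given for the fetal liver cells in the labels used here, and neither says how many animals were pooled. Each group was measured on 1 single-colour Agilent array, so there is no spread between replicates, no test across samples and no p-value.

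TNF receptors are membrane proteins with cysteine-rich outer domains that bind trimeric ligands of the TNF family. Some have an intracellular death domain that recruits the adaptors Tradd or Fadd, and through them either caspases or the NF-kB pathway. Others bind Traf adaptors directly and lead mainly to NF-kB and MAP kinase signalling. Tnfrsf25, also called death receptor 3, has a death domain, binds the ligand Tnfsf15 and is best known on T cells and innate lymphoid cells. Within LSK cells, Cd27 is a surface marker that is low on the most primitive stem cells and higher on multipotent progenitors.

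Of the 10 receptors, Tnfrsf25 alone passed 2-fold in favour of fetal liver. Its processed signal, in arbitrary units, was 14.53 in bone marrow and reached 1199 in fetal liver. Signals as a whole were brighter on the bone marrow array, with a 75th percentile of 178.9 against 134.0, so each array was scaled to that percentile. On this scale Tnfrsf25 was 110.2-fold higher in fetal liver. Its log2 difference, fetal liver minus bone marrow as for all differences here, was 6.78 ± 0.33. Here ± stands for a technical error combined from the errors the scanner software writes for each spot. The bone marrow signal was well above background by the software's flag but near its limit, since the lowest such signal on that array was 12.4 and negative control spots had a median of 2.70. The fetal liver signal was far from that limit. In bulk RNA such as this, fewer cells of a type and less RNA per cell cannot be told apart. Tnfrsf25 had 1 probe, printed as 1 spot, so no second probe bears on this value. Among the 12251 named genes above background on both arrays, it had the highest difference in favour of fetal liver. Among all 13385 named genes above background on at least 1 array it ranked 4, behind 3 genes that were dim in bone marrow and have only a lower bound, the stefin-related genes Cstdc5 and Stfa1 and the let-7 regulator Lin28b.

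**Figure D1:**
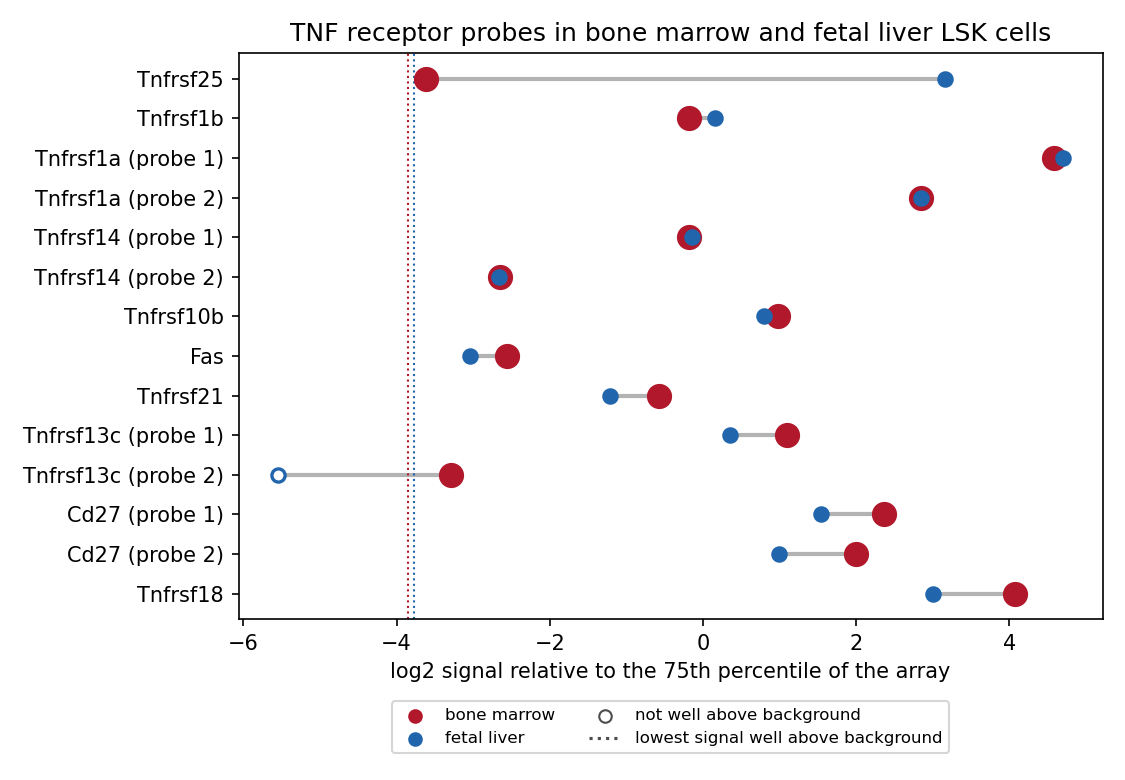
Log2 signal of each of the 14 probes of the 10 receptors, relative to the 75th percentile of its array, in bone marrow (red, larger points) and fetal liver (blue, smaller points), with 1 array per group. Levels can be compared within a row only; Tnfrsf25 goes from -3.62 to 3.16, and the open point marks the signal that was not well above background.

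The sequence before the transcription start of Tnfrsf25 is shown because its signal differed most. RefSeq (GRCm38.p6) gave 2 start sites for it, and 9 of the 10 receptors matched an entry in the promoter table, all except Tnfrsf10b. Each line holds the 250 bases before a start, on the + strand, at chr4:152115684-152115933 and chr4:152116093-152116342. Capitals mark matches to RUNX (TGTGGT), ETS (CCGGAA) or NF-kB motifs on either strand.
Tnfrsf25 first start: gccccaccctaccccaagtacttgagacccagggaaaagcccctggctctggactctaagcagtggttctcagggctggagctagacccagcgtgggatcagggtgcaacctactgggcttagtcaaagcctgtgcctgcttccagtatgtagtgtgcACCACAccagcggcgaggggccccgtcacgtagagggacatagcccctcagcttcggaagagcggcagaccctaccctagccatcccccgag
Tnfrsf25 second start: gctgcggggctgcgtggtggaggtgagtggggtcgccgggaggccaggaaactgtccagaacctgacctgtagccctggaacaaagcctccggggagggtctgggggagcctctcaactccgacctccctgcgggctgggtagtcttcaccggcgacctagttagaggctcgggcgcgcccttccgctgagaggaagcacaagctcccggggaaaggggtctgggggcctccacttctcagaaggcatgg
The first window held 1 RUNX match, and the second held none of the 3 motifs. RUNX matches were found in 14.05% of all 32851 promoter windows of this length. Of the 10 windows of the receptors, 2 held a RUNX match, the other being that of Tnfrsf13c. The windows were 61.6% and 66.4% G and C, against a median of 52.4% over all windows. No NF-kB match was found in any of the 10 windows of the receptors, and 3.90% of all windows had 1. ETS matches (12.0% of all windows) stood before Tnfrsf1a, Tnfrsf1b and Tnfrsf18. These matches describe letters only.

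Neither gene directly beside Tnfrsf25 had a measured difference, and a gene further out had a smaller difference in the same direction. Espn, the next gene on one side, codes for an actin-bundling protein and stayed under the well-above-background flag on both arrays, with signals of 6.71 in bone marrow against 4.78 in fetal liver. On the other side Plekhg5 had no named probe. The gene after it, Nol9, which codes for a kinase of ribosomal RNA processing, had signals of 122.5 and 139.3, a log2 difference of 0.60 ± 0.21. By the likeness rule, the 5 of 12250 other genes above background on both arrays whose log2 difference over the 2 arrays lay nearest to that of Tnfrsf25 were Fn1 (5.17), Col18a1 (5.16), Grrp1 (5.13), Dlk1 (5.09) and Igf2bp2 (5.04). Fn1 and Col18a1 code for matrix proteins, Dlk1 for a relative of Notch ligands and Igf2bp2 for an RNA-binding protein of fetal cells. The nearest of them, Fn1, was 1.61 below Tnfrsf25 on the log2 scale.

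**Figure D2:**
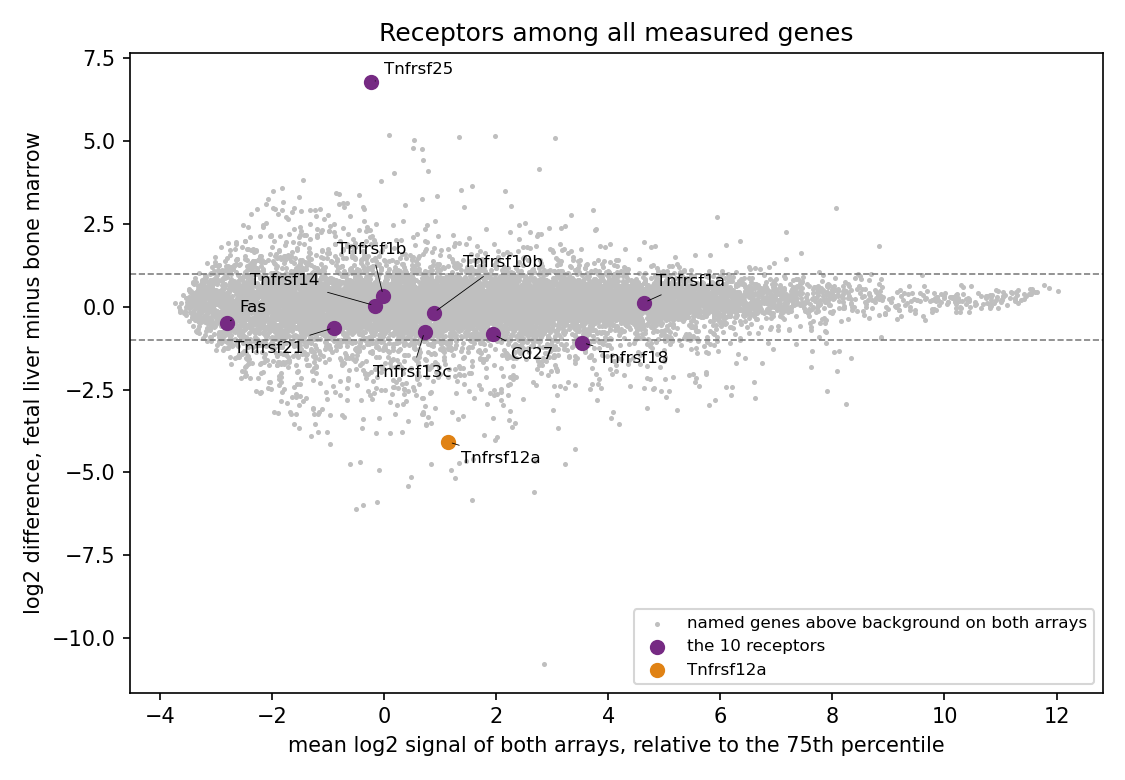
Log2 difference, fetal liver minus bone marrow, against mean log2 signal for the 12251 named genes above background on both arrays (grey), with the 10 receptors in purple and Tnfrsf12a in orange; 1 array per group. Tnfrsf25 at 6.78 lies above all grey points, while 8 of the other receptors lie between the dashed 2-fold lines and Tnfrsf18 lies just outside them.

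Of the other death domain receptors, Tnfrsf1a had nearly the same signal in both populations. Tnfrsf1a is the main receptor for TNF on most cells. Its probe with 10 spots gave 4117 to 4465 (median 4247) in bone marrow and 3333 to 3690 (median 3470) in fetal liver. After scaling, the log2 difference was 0.13 ± 0.06, and its second probe gave 0.01 ± 0.20. Before scaling the spots of the arrays did not overlap, while after it their ranges met at the edge. The difference was -0.21 under scaling by spike-in controls. Tnfrsf10b, the mouse receptor for the death ligand TRAIL, had signals of 351.5 in bone marrow against 232.9 in fetal liver, and its log2 difference was -0.18 ± 0.21, which is within its technical error.

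Fas and Tnfrsf21 lay lower in fetal liver, by less than 2-fold. Fas, the receptor that triggers cell death when it meets Fas ligand, was dim, with spots of 24.8 and 35.6 in bone marrow and of 14.7 and 17.7 in fetal liver. The spots of the arrays did not overlap, before or after scaling, and the log2 difference was -0.48 ± 0.22. It was 0.07 with normexp background correction, a setting that replaces both the background method and the spot signal it starts from. Tnfrsf21, also called death receptor 6, had signals of 119.7 in bone marrow against 58.0 in fetal liver, and its log2 difference was -0.63 ± 0.21. It stayed negative, from -0.97 to -0.31, over the 10 processing alternatives.

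Among receptors that signal through Traf adaptors without a death domain, Tnfrsf18 was the 1 receptor of the 10 at least 2-fold higher in bone marrow. Tnfrsf18, also called GITR, is a co-stimulatory receptor of T cells. Its signal was 3020 in bone marrow and 1072 in fetal liver, 2.11-fold higher in bone marrow, with a log2 difference of -1.08 ± 0.20. Its neighbour in the genome, the co-stimulatory receptor Tnfrsf4 (OX40), differed by 0.15 ± 0.21, with signals of 151.1 and 125.5, so this neighbouring pair of co-stimulatory receptors did not move alike.

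Cd27 came next. It was 1.77-fold higher in bone marrow by its brighter probe, with signals of 917.9 and 388.0 (-0.83 ± 0.20), and 2.01-fold higher by its other probe, with signals of 712.2 and 265.4 (-1.01 ± 0.20). Both probes pointed the same way, and the threshold of 2-fold falls between them. Tapbpl, which lies beside Cd27 and codes for a peptide-loading protein, was at -0.88 ± 0.20. Tuba3a, on the other side of Cd27, went the other way. It was above background in fetal liver only, at 14.7 against 13.3 in bone marrow, a bound of 0.57. Flt3, which like Cd27 is higher on multipotent progenitors than on stem cells, was at -0.89. How the mix of stem cells and progenitors in the sorts bears on Cd27 was not tested.

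Tnfrsf13c, the BAFF receptor of B cells, was 1.68-fold higher in bone marrow by its brighter probe, with signals of 382.6 and 170.9 (-0.75 ± 0.21). Its other probe had 18.3 in bone marrow and was not well above background in fetal liver, where it read 2.86. As a bound, this probe was at least 1.40-fold brighter in bone marrow.

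Tnfrsf14 and Tnfrsf1b were close to equal. Tnfrsf14, the receptor HVEM, had signals of 158.1 in bone marrow against 121.4 in fetal liver (0.04 ± 0.21), and its second probe gave -0.01 ± 0.30. Tnfrsf1b, the second TNF receptor, which lacks a death domain, had signals of 157.3 and 149.2 (0.34 ± 0.21). Its difference exceeded the technical error under the percentile scaling but was 0.01 under spike-in scaling.

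In order of difference the receptors ran from Tnfrsf25 through Tnfrsf1b, Tnfrsf1a, Tnfrsf14, Tnfrsf10b, Fas, Tnfrsf21, Tnfrsf13c and Cd27 to Tnfrsf18. The step from Tnfrsf25 to Tnfrsf1b was 6.44 on the log2 scale, against a combined technical error of 0.39. Of the other neighbours in that order, only Tnfrsf10b and Fas were further apart than their combined technical error, at 0.305 against 0.301. In all, 1 of the 10 passed 2-fold toward fetal liver, as did 6.73% of the measured named genes, and 1 of 10 toward bone marrow, as did 8.17%. These shares are near those of all genes. The median difference of the 10 was -0.33, that of all named genes 0.11, and 6 of the 10 had a negative difference, as did 42.2% of all named genes. At a threshold of 1.5-fold, 4 of the 10 were higher in bone marrow (14.9% of all) and 1 in fetal liver (17.6% of all). At 3-fold the counts were 0 of 10 for bone marrow (4.03% of all) and 1 for fetal liver (2.64% of all).

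These counts moved with the scaling. Spike-in scaling lowered the difference of genes above background on both arrays by 0.34 and moved the median of all named genes to -0.23. Past 2-fold it left 509 named genes on the fetal liver side (901 with the percentile) and 1757 on the bone marrow side (1093 with the percentile). Under it Cd27 and Tnfrsf13c joined Tnfrsf18 past 2-fold, and Tnfrsf1a and Tnfrsf14 turned to the bone marrow side at -0.21 and -0.30. Tnfrsf25 was at 6.45 under spike-in scaling and at 4.22 with normexp, which raises dim signals.

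**Figure D3:**
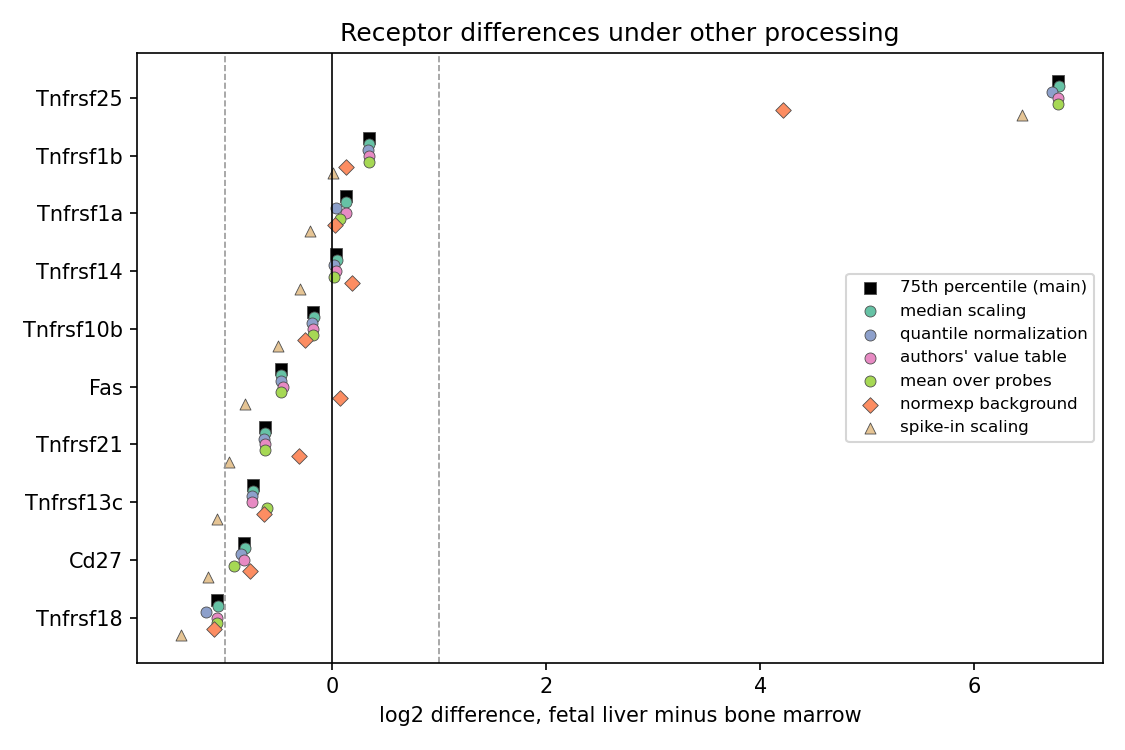
Log2 difference, fetal liver minus bone marrow, of each of the 10 receptors under the main processing (black squares) and 6 of the alternatives; dashed lines mark 2-fold and the solid line 0. Tnfrsf25 stays between 4.22 and 6.79, and Tnfrsf18, Cd27, Tnfrsf13c, Tnfrsf21 and Tnfrsf10b stay below 0 throughout.

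Across the rest of the superfamily the largest difference pointed the other way. All 28 mouse receptors listed had a named probe, 21 were above background on both arrays, 2 on 1 array, and 5 (Tnfrsf8, Cd40, Ngfr, Eda2r and Edar) on neither. Tnfrsf12a, also called Fn14, the receptor for the ligand Tnfsf12 (TWEAK), had signals of 1626 in bone marrow against 72.2 in fetal liver. It was 16.9-fold higher in bone marrow after scaling (-4.08 ± 0.21). It ranked 32 from the bone marrow end among the 13385 measured genes. Its ligand Tnfsf12 had signals of 463.5 and 480.5 by its brighter probe (0.47 ± 0.20), while its dimmer probe was above background in bone marrow only, a bound of -0.89. Tnfrsf26 was 2.56-fold higher in bone marrow, with signals of 304.7 and 89.1 (-1.36 ± 0.21). Of the 18 other receptors, 13 were measured, and past 2-fold 2 of these were higher in bone marrow (8.17% of all named genes), against 0 for fetal liver (6.73% of all). That makes 3 of 23 measured receptors past 2-fold toward bone marrow and 1 toward fetal liver, or 13.0% and 4.35% against 8.17% and 6.73% of all named genes. Of the 21 receptors above background on both arrays, 12 lay within 1.5-fold. Among the 13385 named genes measured on 1 array or both, 17.6% passed 1.5-fold toward fetal liver and 14.9% toward bone marrow.

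Divided by their signalling part, death domain receptors had 1 of 5 measured members past 2-fold, Tnfrsf25, in fetal liver. Receptors that bind Traf adaptors without a death domain had 2 of 14, Tnfrsf12a and Tnfrsf18, in bone marrow. Over all named genes, 6.73% and 8.17% passed 2-fold in these directions, and counts this small were not compared between classes. The decoy receptors Tnfrsf11b, Tnfrsf22 and Tnfrsf23 ranged from -0.995 to 0.09, with Tnfrsf23 at signals of 38.7 and 14.54. Steady signals were seen for Ltbr, the lymphotoxin beta receptor (2199 and 1665, a difference of 0.02), and Tnfrsf9, the co-stimulatory receptor 4-1BB (0.13). Of the other receptors above background on both arrays, Relt was highest in favour of fetal liver at 0.70. Tnfrsf17 and Tnfrsf19 were above background in fetal liver only, with bounds of 0.27 and 0.61 that set no upper limit.

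**Figure D4:**
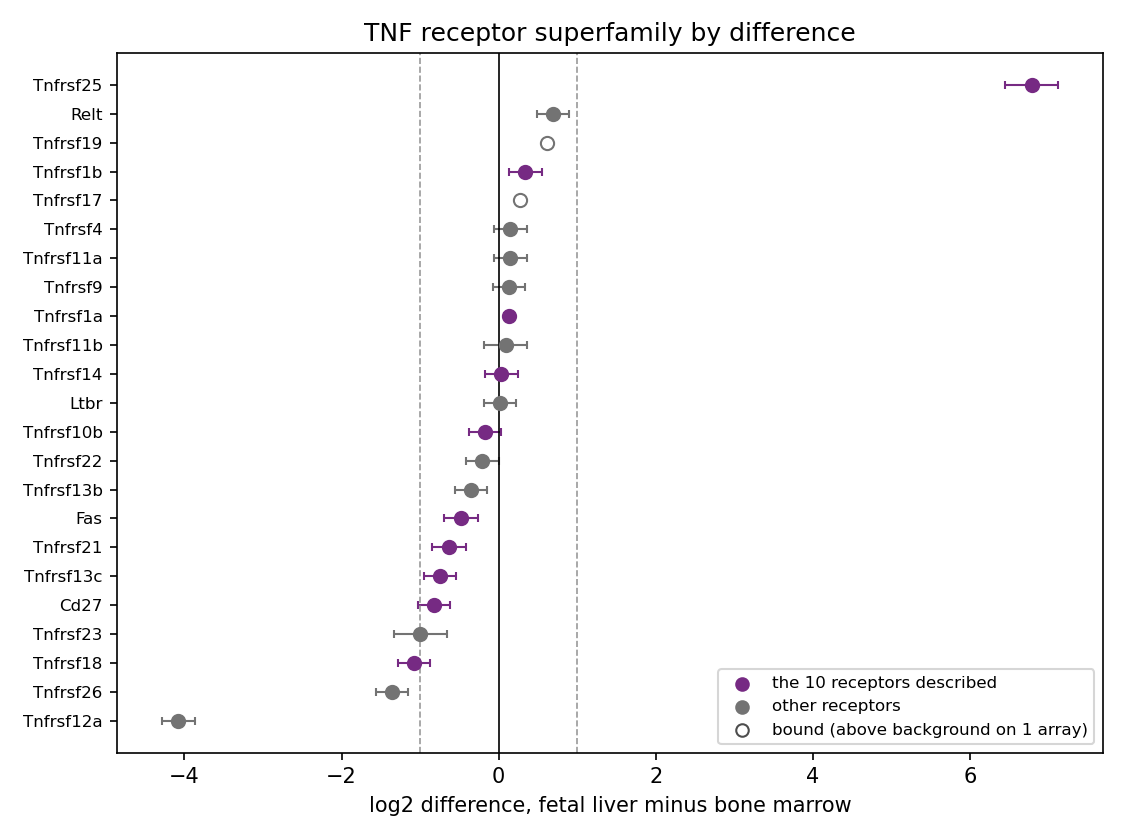
Log2 difference, fetal liver minus bone marrow, of the 23 receptors above background on at least 1 array, with the technical error of the image software as bars; purple marks the 10 receptors, grey the others, and open points bounds. Tnfrsf25 at 6.78 and Tnfrsf12a at -4.08 stand at the ends, and 19 of the 23 points, both bounds included, lie between the dashed 2-fold lines.

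For 3 of the 10 receptors, Tnfrsf25, Cd27 and Tnfrsf18, the matching ligand was dim in the LSK cells themselves. Tnfsf15, the ligand of Tnfrsf25, stayed under the well-above-background flag on both arrays, with signals of 3.29 in bone marrow against 2.14 in fetal liver. Cd70, the ligand of Cd27, Tnfsf18, the ligand of Tnfrsf18, and Lta, which binds Tnfrsf1a, Tnfrsf1b and Tnfrsf14, were not well above background either. A probe not above background sets only an upper limit on the signal.

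Of the 11 measured ligands, 6 had a negative difference (42.2% of all named genes) and 5 a positive 1, with a median of -0.24 (0.11 over all). Tnf had signals of 896.5 in bone marrow against 569.5 in fetal liver (-0.24 ± 0.06). Tnfsf10, which codes for TRAIL, the ligand of Tnfrsf10b, had 603.4 and 233.9 (-0.95 ± 0.20), so the ligand differed more than its receptor. Tnfsf14, the ligand of Tnfrsf14, was at -0.50 ± 0.20. Fasl was above background in bone marrow only, at 17.8, a bound of at least 1.36-fold.

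Of 11 measured ligands, 2 passed 2-fold toward bone marrow (8.17% of all named genes) and 1 toward fetal liver (6.73% of all), all 3 of them bounds. Tnfsf11, the ligand RANKL of osteoclast formation, was brighter in bone marrow, at 88.1, by at least 6.72-fold. Tnfsf8, the ligand of CD30, was brighter there by at least 2.95-fold, at 38.7. Tnfsf13b, which codes for BAFF, the ligand of Tnfrsf13c, was brighter in fetal liver, at 29.0, by at least 3.13-fold. It thus ran opposite to its receptor. With normexp only Tnfsf11 stayed past 2-fold among these ligands.

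Downstream of the receptors, Tradd, the adaptor of Tnfrsf25 and Tnfrsf1a, was at -0.21 ± 0.20, Ripk1, its partner kinase, at -0.07, and Traf2 at 0.19, with a dimmer probe of Traf2 at -0.51. None of the 11 death branch genes was past 2-fold by its brightest probe, against 6.73% of all named genes toward fetal liver and 8.17% toward bone marrow. Their median was 0.08 with the percentile, -0.26 with spike-in scaling, -0.01 with quantile normalization and -0.0047 with normexp. Fadd was at -0.08, Casp8, the initiator caspase, at 0.14, and Cflar, the inhibitor of Casp8, at -0.65 by its brightest probe. A second probe of Cflar gave -0.64. Its dimmest probe was above background in bone marrow only, at 31.2, a bound of -1.25 that is past 2-fold.

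Nfkbia, the inhibitor IkB-alpha that NF-kB itself induces, read 28707 in bone marrow and 3980.3 in fetal liver. After scaling it was 5.40-fold higher in bone marrow (-2.43 ± 0.20). Tnfaip3, the ubiquitin-editing enzyme A20, another NF-kB target that ends TNF signalling, had 6197 and 1212, and was 3.83-fold higher in bone marrow (-1.94 ± 0.20). Cyld, a deubiquitinase of the same pathway, was at -1.10 and Relb, an NF-kB subunit of the non-canonical arm, at -1.28 by 1 probe and -1.25 by the other. Map3k14, the kinase NIK of that arm, was at -1.06, and its dimmer probe at -0.57.

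Of 17 NF-kB branch genes 12 had a negative difference, as did 42.2% of all named genes. Past 2-fold toward bone marrow were 3 of the 17 (Nfkbia, Relb and Map3k14), or 17.6%, against 8.17% of all named genes. The median was -0.48, and it was negative under each alternative scaling, at -0.82 with spike-in controls. Of 18 adaptors and ubiquitin enzymes, 2 (Tnfaip3 and Cyld) were past 2-fold in bone marrow, with Traf1 just inside at 1.998-fold. That is 11.1%, against 8.17% of all named genes. No gene of either list was 2-fold higher in fetal liver, against 6.73% of all named genes, and counts this small were not compared.

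**Figure D5:**
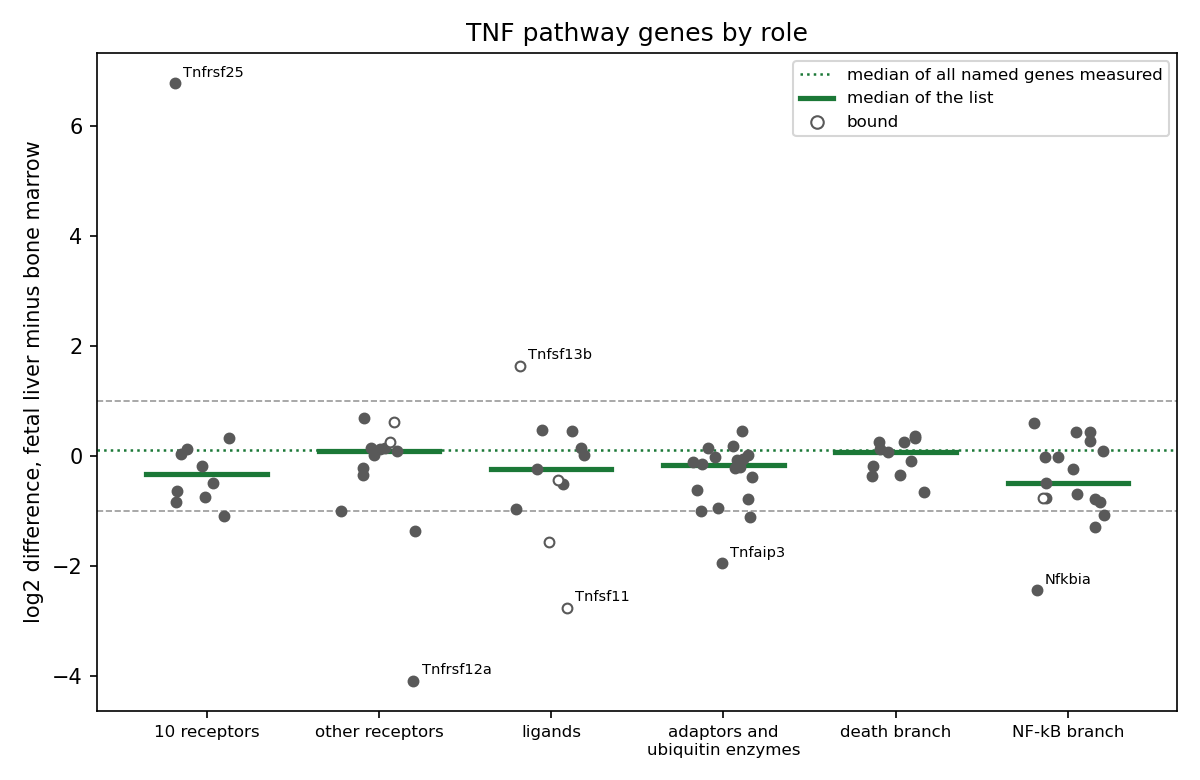
Log2 difference, fetal liver minus bone marrow, of each measured gene of the TNF pathway by role, 1 array per group; open points are bounds, green bars the list medians and the dotted line the median of all named genes (0.11). The NF-kB branch has the lowest list median at -0.48, with Nfkbia at -2.43.

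The promoters of Nfkbia and Tnfaip3 are shown because these feedback genes had the largest differences downstream. Of Tnfaip3 only the window picked for its matches is shown, and its other window held 0. The windows shown therefore make no comparison with those of Tnfrsf25. The windows are the 250 bases before the start on the - strand, at chr12:55492648-55492897 and, for the start of Tnfaip3 that held matches, chr10:19015411-19015660 (RefSeq, GRCm38.p6). Capitals mark NF-kB motif matches on either strand.
Nfkbia: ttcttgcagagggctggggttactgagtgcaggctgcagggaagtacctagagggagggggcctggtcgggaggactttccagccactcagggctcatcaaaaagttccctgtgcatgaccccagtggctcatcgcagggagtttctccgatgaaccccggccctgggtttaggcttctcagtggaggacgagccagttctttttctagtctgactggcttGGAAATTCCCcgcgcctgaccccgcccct
Tnfaip3: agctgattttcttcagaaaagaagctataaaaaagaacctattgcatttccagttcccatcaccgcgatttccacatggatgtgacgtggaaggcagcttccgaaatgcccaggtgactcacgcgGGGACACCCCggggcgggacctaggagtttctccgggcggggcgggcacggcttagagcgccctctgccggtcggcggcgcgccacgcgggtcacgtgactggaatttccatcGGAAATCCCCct
NF-kB matches were found in 7 of 19 windows of the NF-kB branch genes, before 5 of the 13 genes with a window, and in 4 of 20 windows of the adaptors and ubiquitin enzymes. The other receptors had 2 of 16, the death branch 0 of 13 and the 10 receptors 0 of 10, with 3.90% of all windows holding a match.

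The sorted cells carried the transcripts that define them. All 6 LSK genes listed were above background on both arrays, with Kit at a difference of 0.01 and Ly6a, which codes for Sca-1, at -2.28. Several of the receptors are known from T cells, and the T cell list was mixed. Among its genes, Cd28 (-1.86), Lat (-1.35), Lck (-0.75) and Cd3d (a bound of -1.52) were lower in fetal liver. Cd3e (0.52), Cd5 (0.29), Cd4 (0.24) and Cd3g (a bound of 0.81) were higher there, though Cd4 and Cd5 turned negative with spike-in scaling. Cd2, Cd8a and Cd8b1 were not well above background on either array.

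Markers of NK and innate lymphoid cells had a summed signal, relative to the 75th percentile, of 70.8 in bone marrow against 18.6 in fetal liver, mostly from Nkg7 (-2.44). Without Nkg7 the sums were 4.83 and 6.48, and Ncr1, Klrk1 and Eomes were not well above background on either array. Within that list Gzma, at 75.5 in fetal liver, was brighter there by at least 8.15-fold, and Il7r by 2.51-fold, from 22.5 to 42.3. Id2 was at 0.71 and Tbx21 at 0.49. The regulatory T cell genes summed to 0.52 and 0.30. Neutrophil and monocyte genes summed to 60.2 and 64.5, with Cd14 at -4.14, Ngp at -3.67, Ltf at -0.31, Itgam at 0.08 and Csf1r at 0.30. Macrophage genes summed to 0.34 and 0.29. Of the hepatocyte genes, Alb, Ttr and Apoa1 were not well above background on either array, and Fgb was above it in bone marrow only. What part other cells have in the receptor values was not tested. The arrays lay on separate slides, so slide, tissue and age cannot be told apart.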

How the data were processed

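LSK cells of mouse bone marrow and fetal liver were profiled on 1 single-colour (Cy3) Agilent array each, from 20 ng of total RNA with spike-in controls, per the labels' protocols. The deposited intensity values are processed signals written by Agilent Feature Extraction 10.7.1.1 (array design on build mm9), per the file headers, with background subtracted within each array and no scaling between arrays. Flags of 0 or 1 (a signal well above background, an outlier) came from the same files. The deposited value table holds a linear ratio that the authors made. It equals the processed signal divided by 178.6 (bone marrow) or 133.9 (fetal liver) within 0.1% for 99.99% of probes printed as 1 spot. The medians of its columns were 0.0589 and 0.0604. It is neither logged nor centred, and the sources used here do not say how its constants were chosen. These constants lie close to the 75th percentiles of the arrays (178.9 and 134.0), so the table is close to the main scale.

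Outlier spots (137 and 122) were left out, spots of a probe were averaged, and log2 signals were set relative to the array's 75th percentile over non-control probes (signals of 178.9 and 134.0). No spot was saturated. Probes well above background made up 47.4% and 46.4%. Symbols came from RefSeq (GRCm38.p6) through each probe's accession, which named 27226 of 55664 probes. A gene took its brightest probe. Where it was well above background on 1 array only, the dim side was taken as its own signal or the lowest signal well above background on that array (12.4 and 9.82), whichever was larger, and the difference is a bound, written as at least N-fold. The technical error combines the software's signal errors. The number of arrays limits the precision. Differences were counted at 2-fold, because 1 array per group allows no test. The 10 receptors, 5 pathway lists and 8 marker lists, the signalling classes and the motifs were chosen with earlier results of these data known. The result of 1 marker list, and the counts and sum of the T cell list, are not reported here. The text names all 10 receptors and their ligands, except for Tnfrsf21, for which no ligand was listed. It also names list genes past 2-fold (up to 4 in each direction), the genes beside Tnfrsf25 and the 5 nearest to it in difference. Other list genes were named after their values were seen. Alternatives covered scaling, background (normexp in limma 3.58.1, offset 50, on the median spot signal), filters, probe summary and threshold. The counting of differences was tested on simulated data.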

Additional observations from a re-analysis of the deposited data

How the results depend on the processing

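The log2 difference of Tnfrsf25 was 6.78 and stayed within its technical error under 8 of 10 processing alternatives. Most of these 8 could hardly move it. Its 1 probe was above background on both arrays, so the filters, the software's looser flag and the probe summary could not change it. Keeping outlier spots changed only the scaling, and the authors' table holds the same signal on nearly the same scale. The difference was 6.45 with spike-in scaling and 4.22 with normexp, which lifts the dim bone marrow signal. The count of receptors at least 2-fold higher in fetal liver was 1 throughout. The count in bone marrow was 1, but 3 with spike-in scaling, 4 at a threshold of 1.5-fold and 0 at 3-fold. Of 90 values of the other 9 receptors, 76 stayed within the technical error, 14 moved further and 3 changed sign (Fas with normexp, Tnfrsf1a and Tnfrsf14 with spike-in scaling). The filters and the looser flag could not move these receptors either, nor could the probe summary where a receptor had 1 probe. The 901 and 1093 named genes past 2-fold in fetal liver and bone marrow became 379 and 606 with normexp and 1685 and 1658 with no filter on dim probes or with the software's looser flag. In bone marrow, the NF-kB branch count of 3 became 8 with spike-in scaling and 1 with normexp, the count of 2 adaptors and ubiquitin enzymes became 5 and 1, the count of 2 other receptors became 3 with spike-in scaling or quantile normalization and 1 with normexp, and the count of 2 ligands became 4 with no filter or the looser flag, 1 with normexp and 0 among genes above background on both arrays. With no filter or the looser flag, 3 other receptors passed 2-fold in fetal liver, against 0. No paired analysis was possible because each group has 1 array. Dim signals, such as those of Fas and of Tnfrsf25 in bone marrow, are the least precise.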
